A study of Mus musculus with 32 samples.

Results

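The spleen arrays of a study of mice cloned by nuclear transfer were used to compare the clone shift of Dll1 mice with that of wildtype mice. A clone shift is the log2 ratio of a cloned mouse over a pool of conventionally bred mice of its own genotype, and the quantity compared here is the Dll1 shift minus the wildtype shift. The members were the 16 spleen arrays of the 32 arrays of the series, chosen by organ in the sample titles. They came from 8 male mice of strain 129/SvJ, aged 18 to 19 weeks, with 4 mice labelled Dll1 cloned and 4 labelled wt cloned. For every mouse there was 1 array in each dye orientation, and this pair was averaged, so the mouse was the replicate and n was 4 per cohort. The second channel of the Dll1 arrays held a pool labelled Dll1 heterozygotes, and that of the wildtype arrays a wild type pool. The labelling protocol names 6 pooled control animals, whereas the labels list 4 animals for each pool. The genotype label of the cloned Dll1 mice does not state zygosity, and the sources used here do not say how many donor cell lines the clones came from. All mice of a cohort were set against the same pool, so a difference between the Dll1 pool and the wildtype pool cannot be told apart from a difference between the clones.

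Dll1 encodes Delta-like 1, a membrane ligand that activates Notch receptors on neighbouring cells. Cleavage of the receptor frees its intracellular domain, which enters the nucleus, binds the DNA-binding protein RBPJ and switches on targets such as genes of the Hes and Hey families. In the spleen, stromal Dll1 acting on Notch2 is needed for marginal zone B cells, which guard the border between red and white pulp. Nuclear transfer makes an animal from the nucleus of a somatic cell placed in an enucleated egg, and clones are known for errors in DNA methylation and imprinting.

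No feature passed the test between the cohorts in spleen once all were tested together. A feature was a gene, averaged over its probes, or an unnamed probe, and it had to have a value in at least 3 mice of each cohort. Of 16956 features tested with limma, 0 (0%) passed a Benjamini-Hochberg adjusted p of 0.05, and the smallest adjusted p was 0.883. At an unadjusted p under 0.05 there were 766 features (4.52%), of which 383 (2.26%) were higher in the Dll1 shift and 383 (2.26%) lower. Differences were above 0 in 49.5% of features and under 0 in 50.5%, with a median of -0.00384 and 10th and 90th percentiles of -0.51 and 0.48 on the log2 scale. The median standard error was 0.292 and the median half-width of the unadjusted 95% interval was 0.666. For a typical feature, smaller differences would not reach an unadjusted p of 0.05, and passing the adjusted threshold takes larger ones. The 4 Dll1 mice all lay above the 4 wildtype mice in 256 (1.56%) of the 16430 features with a value in all 8 mice, and all below in 275 (1.67%). In every gene account that follows, a difference is the Dll1 mean minus the wildtype mean on the log2 scale, and none passed the adjusted threshold.

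The mice themselves shared little. Correlations of the mouse values over features were 0.00249 to 0.0561 between mice of one cohort and -0.0197 to 0.0648 between cohorts, and the 2 arrays of a mouse correlated at -0.200 to -0.0763. Dll1 mouse 1 stood apart, with 3962 missing spots over its 2 arrays and a standard deviation of 0.853 over features. The other mice had 852 to 2498 missing spots and standard deviations of 0.455 to 0.717. Missing spots averaged 2344 ± 1282 in the Dll1 cohort and 1200 ± 538 in the wildtype cohort (SD, n = 4 each), with a two-sided exact permutation p of 0.171. The standard deviation over features averaged 0.679 ± 0.156 and 0.507 ± 0.0739 (SD, n = 4 each; exact permutation p = 0.0857), and the smallest p this design allows is 0.0286. Adjusted over the 4 such measures compared, these became 0.171 and 0.152. The cohorts overlapped in both measures, and the part of array spread in the differences was not tested.

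Some properties of the table bear on direction and on names. The titles put the clone before the pool, so the ratio was taken as likely clone over pool, a direction that the files do not settle. If it ran the other way, each sign below would flip. The Cy3 arrays were taken to have that direction in the table as deposited. Over the 13568 probes with a value on all 16 arrays, the Dll1 minus wildtype difference from the Cy5 arrays correlated at -0.0578 with that from the Cy3 arrays (Pearson; Spearman -0.0581), and 46.4% of probes had the same sign. All values of the Cy5 arrays were written with 3 decimals, against 89.0% to 91.7% on the Cy3 arrays, a difference in how the columns were written. Gene names were read 11 rows earlier in the platform's list, a shift that had been found from these data. Probes of one gene agreed over the 8 spleens at a mean correlation of 0.0179 with this shift and 0.00158 without it. In spleen alone the shift ranked 2 among 401 shifts scored, and with liver added it ranked 1 (0.0268, against 0.0197 for the next). Each gene name below carries this limit.

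Named genes with a complete probe, meaning a value on all 16 arrays, were ranked by p. The ranked value averaged all probes of a gene, and its other probes could lack values. The 10 genes of smallest p in each direction are described as the top of the ranking, not as changed genes. Their unadjusted p ran from 0.00134 to 0.00795, and each had an adjusted p of 0.883 in limma. Fam120b, which encodes a coactivator of the fat cell regulator PPAR-gamma, lay at 1.27, 0.26, 0.78 and 0.83 in Dll1 mice 1 to 4 and at -1.05, -0.08, -0.55 and -0.40 in wildtype mice 1 to 4. All Dll1 values were above 0 and all wildtype values under it, a difference of 1.30 (SE 0.28). Several of these means hide arrays of opposite sign. Dll1 mouse 2 had 1.14 on its Cy3 array and -0.62 on its Cy5 array, and Dll1 mouse 4 had 1.86 and -0.20. Wildtype mouse 1 had 0.87 and -2.98, and the arrays of wildtype mice 2 and 4 also differed in sign. Kctd10, an adaptor that brings substrates to a cullin ubiquitin ligase, lay at 1.61, 0.51, 1.66 and 1.19 against 0.01, 0.06, 0.04 and 0.09, a difference of 1.19 (SE 0.27). The wildtype mice sat together near 0, and the high Dll1 values of mice 1 and 3 came from their Cy5 arrays, at 3.49 and 3.87, while their Cy3 arrays gave -0.26 and -0.55.

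Rbm14, an RNA-binding coactivator found in paraspeckles, lay at 0.94, 1.62, 1.30 and 0.42 in the Dll1 mice against -0.13, -1.17, -0.24 and -0.09. The difference was 1.48 (SE 0.34), with wildtype mouse 2 far below its cohort. Traf2, an adaptor that passes signals from tumour necrosis factor receptors, lay at 0.48, 0.06, 1.77 and 1.21 against 0.04, -1.46, -0.51 and -0.74. The cohorts did not overlap, but Dll1 mouse 2 and wildtype mouse 1 were almost level, and the difference was 1.55 (SE 0.43). Sfi1, a centrin-binding protein of the centrosome, lay at 1.02, 0.86, 0.84 and 0.87 in the Dll1 mice and at 0.15, -0.98, 0.33 and 0.02 in the wildtype mice. Its even Dll1 values were means of 2 uneven probes, one at 1.88, -0.14, 1.53 and 1.33 and the other at 0.16, 1.87, 0.15 and 0.40. Cdca2, which recruits a phosphatase to mitotic chromatin, had a difference of 1.27 (SE 0.29), but 0.27 on the Cy5 arrays and 1.82 on the Cy3 arrays. Its 2 probes disagreed by mouse, at -0.13 and 2.81 in Dll1 mouse 1 and at 3.06 and -0.17 in Dll1 mouse 2. Phf12, part of a Sin3 corepressor complex, also had a difference of 1.27 (SE 0.31). Rxylt1, needed for the sugar chains of dystroglycan, lay 1.41 higher (SE 0.38), with Dll1 mice 3 and 4 at -0.07 and 0.15 and mice 1 and 2 at 1.40 and 1.38. Lonp2, the Lon protease of peroxisomes, had the smaller difference of 0.81 (SE 0.19), and Ott of 0.80 (SE 0.23).

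Among the 10 genes ranked on the lower side, 2 encode neutrophil proteins. Ngp, a neutrophil granule protein, lay at -0.80, -0.38, -0.79 and -0.50 in the Dll1 mice and at 0.04, 0.11, 0.13 and 0.11 in the wildtype mice. The cohorts lay at -0.62 ± 0.21 and 0.10 ± 0.04 (SD, n = 4 each), with a difference of -0.72 (SE 0.17). This gap beside the spread was in part set by the ranking. The difference was -1.07 on the Cy5 arrays and -0.37 on the Cy3 arrays. S100a9, a subunit of the calcium-binding protein calprotectin, lay at -0.67, -0.58, -1.05 and -0.98 against 0.19, -0.52, -0.02 and 0.09. Here wildtype mouse 2 came close to the Dll1 mice, and the difference was -0.76 (SE 0.22).

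Commd1, an imprinted gene whose product acts in copper export, showed the largest of the 20 differences, at -1.82 (SE 0.44). Its values were -2.47, -0.43, -2.01 and -0.98 in the Dll1 mice and -0.08, 0.39, 0.44 and 0.65 in the wildtype mice. The low mean rested on the Cy5 arrays of Dll1 mice 1, 3 and 4, at -4.74, -3.86 and -1.54, while the Cy3 arrays of the 4 Dll1 mice lay between -0.70 and -0.17. Bmpr1b, a receptor for bone morphogenetic proteins, lay at -0.61, -0.28, -0.22 and 0.01 against 0.37, 2.09, 1.28 and 0.56, a difference of -1.35 (SE 0.37). Its 2 probes gave -0.69 and -2.01, and on the first the Dll1 mice ran from -1.82 to 0.69 and the wildtype mice from -0.13 to 0.36. Tmprss2, a membrane serine protease, lay at -1.02, -0.03, -1.46 and -1.70 against 0.78, 0.10, -0.20 and 0.36, a difference of -1.31 (SE 0.38). It was the only one of the 20 whose cohorts overlapped, since Dll1 mouse 2 lay above wildtype mouse 3.

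Gas8, a part of the dynein regulatory complex of cilia, had a difference of -0.92 (SE 0.20), and Dll1 mouse 1, at -0.00, lay apart from the other Dll1 mice at -0.70 to -0.60. Btg2, an inhibitor of proliferation, had a difference of -0.87 (SE 0.23). Its probes gave -0.51 and -1.56, and the second had no value in Dll1 mouse 1. For Bcan, which encodes the brain proteoglycan brevican, the difference was -0.83 (SE 0.18). Its probes lay at 1.03 and -2.23 in Dll1 mouse 3. Ppp1r3c, which targets a phosphatase to glycogen, had a difference of -0.74 (SE 0.20), and Sh3bp5l had a difference of -0.72 (SE 0.17). Of the 20 genes, 19 had cohorts that did not overlap, but the ranking chose them by p on the same values. Probes did not bear out all of these gaps: 7 of the 20 genes had 2 probes, and of their 12 probes with a value in all 8 mice, 2 had cohorts that did not overlap. The probes of each of these 7 genes shared the sign of the difference, yet S100a9 in Dll1 mouse 1 lay at 0.09 on one probe and -1.44 on the other.

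**Figure D1:**
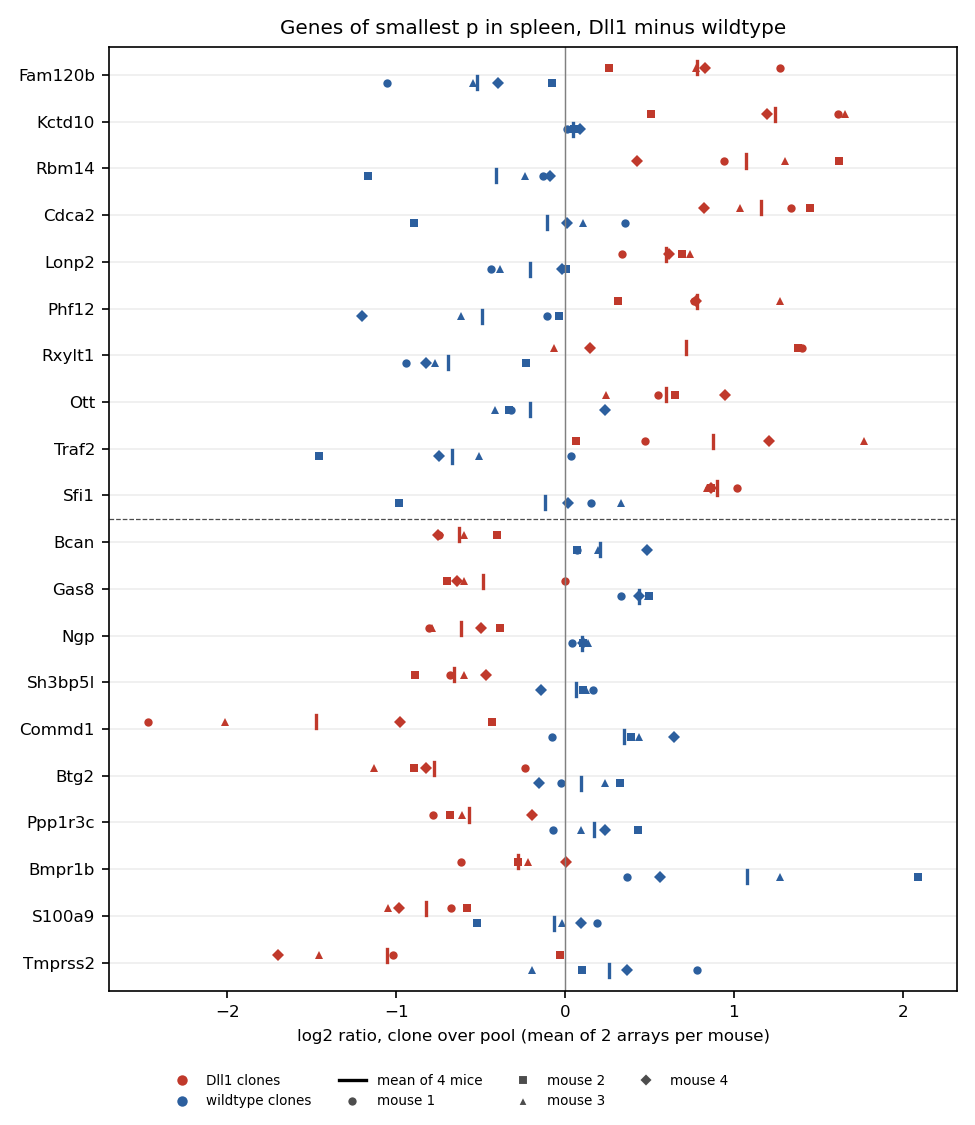
Log2 ratio of clone over pool (x axis) in each spleen for the 20 named genes of smallest p, with 10 on each side of the dashed line. Each symbol is 1 mouse (mean of its 2 arrays), and the upright bar is the mean of the 4 mice of a cohort. The cohorts do not overlap in 19 of the 20 genes, and Tmprss2 is the exception.

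The 2 dye orientations gave the same sign for 18 of these 20 genes and opposite signs for Bcan and Btg2. Bcan stood at 0.21 on the Cy5 arrays and -1.46 on the Cy3 arrays, and Btg2 at 0.31 and -1.59. Agreement in sign did not mean agreement in size. Rbm14 differed by 0.53 on the Cy5 arrays and 2.43 on the Cy3 arrays, and Ott by 0.04 and 1.57. On the lower side, Gas8 differed by -1.63 and -0.21, and Ppp1r3c by -1.39 and -0.09. Closer pairs were Traf2, at 1.56 and 1.53, Sfi1, at 0.91 and 0.97, and S100a9, at -0.70 and -0.81. The same sign in both orientations was in part set by the ranking, since a mean of 2 arrays is large where both point one way.

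**Figure D2:**
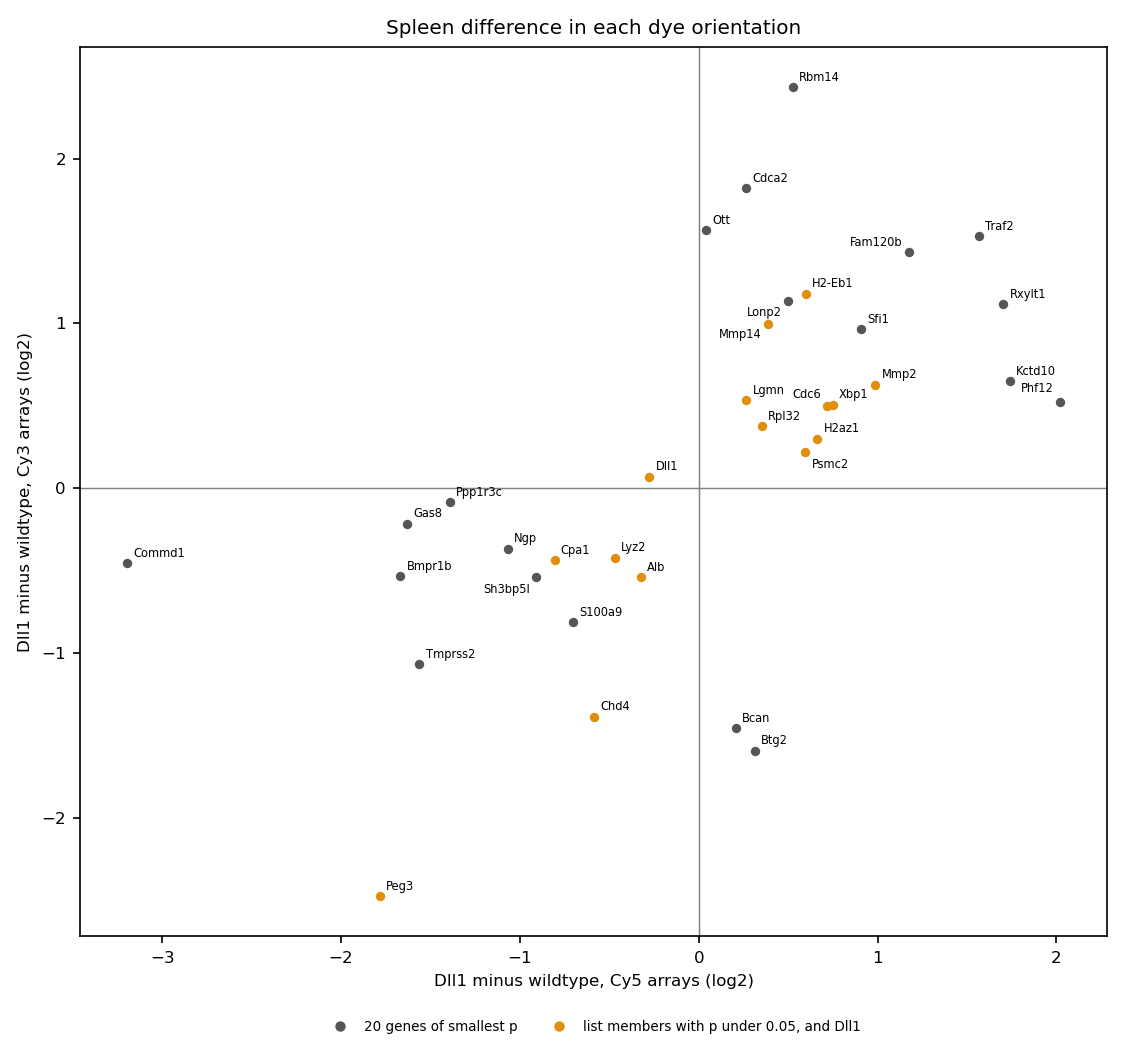
Dll1 minus wildtype difference (log2) from the 8 Cy5 arrays (x axis) and from the 8 Cy3 arrays (y axis), for the 20 genes of smallest p (grey) and for Dll1 and the list genes with an unadjusted p under 0.05 that the text names (orange). Bcan and Btg2 lie to the lower right, and Dll1 lies near the origin at -0.28 and 0.07.

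Dll1 itself had a difference of 0.02 between the cohort means (SE 0.51, 95% interval -1.13 to 1.18, limma adjusted p = 0.996). Its values were 1.44, -0.52, -0.29 and 0.48 in the Dll1 mice and 0.67, -0.85, 0.41 and 0.77 in the wildtype mice, so both cohorts spanned 0. The 2 probes disagreed, with differences of -0.22 and 0.27. The value of Dll1 mouse 1 came from 0.14 on one probe and 2.73 on the other, and the latter lacked a value on the Cy5 array. Averaged over probes first, the arrays of this mouse gave 1.16 (Cy3) and 0.69 (Cy5). Each clone was measured against a pool of its own genotype. The Dll1 difference therefore does not show the effect of the Dll1 allele, and it is no check of the genotype labels. Without Dll1 mouse 1 the difference was -0.36.

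For the receptors the differences were small beside their errors. Notch2, the receptor that marginal zone B cells depend on, was even across the spleens, at 0.13, 0.28, 0.24 and 0.25 in the Dll1 mice and 0.44, 0.20, 0.29 and 0.29 in the wildtype mice. All 8 ratios were above 0, and the difference was -0.08 (SE 0.15, 95% interval -0.43 to 0.27). Notch1 stood at 0.10 (SE 0.26), Notch3 at 0.21 (SE 0.36) and Notch4 at -0.06 (SE 0.17). Of the other ligands, Jag1 stood at 0.08 and Jag2 at -0.06, and both changed sign without Dll1 mouse 1, to -0.09 and 0.25. Also in the list, the imprinted gene Dlk1, a non-activating relative of the Delta ligands, stood at 0.25 (SE 0.21).

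Genes that process and carry the signal spread more widely. Rbpj, the DNA-binding partner of the Notch domain, lay at -0.19, 0.28, -0.19 and 0.19 against 0.15, -0.29, -0.52 and -0.36, with overlap and a difference of 0.28 (SE 0.21). Rfng, one of the Fringe enzymes that add sugars to Notch, lay at -0.32, -0.15, -0.61 and -0.34 against -0.06, -0.38, 0.54 and -0.03, and its unadjusted p of 0.139 was the lowest of the pathway. The proteases Adam10 and Adam17, which cut the receptor, stood at 0.14 (SE 0.18) and 0.24 (SE 0.19), and Aph1a, of the gamma-secretase complex, at -0.74 (SE 0.91). Aph1a differed by -3.02 on the Cy5 arrays and 1.50 on the Cy3 arrays. None of these 5 separated the cohorts (background 1.56% above and 1.67% below).

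Notch targets did not share a direction. Hes1 lay at -1.03, 0.35, 0.00 and -0.19 against -0.01, 0.10, 0.07 and 0.01, a difference of -0.26 that became 0.01 without Dll1 mouse 1. Hey1, a repressor of the same family, stood at 0.44 (SE 0.28). Dll1 mouse 3 lay at 1.09, while the other Dll1 mice lay between -0.04 and 0.10. Hes5 stood at 0.04, Hes6 at -0.06, Hey2 at 0.23 and Myc, a driver of growth and a Notch target in T cell precursors, at 0.15. Dtx1, induced by Notch in marginal zone B cells, stood at -0.00 (SE 0.22).

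Over the 3 Notch lists, in which Dtx1 stands in both of the last, 40 genes were measured, 27 above 0 and 13 under it, with differences from -0.74 to 0.47. None had an unadjusted p under 0.05 (background 4.52%) and none had separate cohorts (background 1.56% above and 1.67% below). At these shares few of 40 genes would be counted, so nothing is read from the counts about the pathway. The lowest limma adjusted p was 0.883. The medians were 0.05 for 8 ligands and receptors, 0.06 for 21 processing and signalling genes and 0.03 for 12 targets, beside -0.00384 over all features. These signs depended on the dye, with medians of -0.05, -0.02 and -0.02 on the Cy5 arrays and 0.01, 0.14 and 0.02 on the Cy3 arrays. Without Dll1 mouse 1 the ligand and receptor median was -0.03. Of 7 measured marginal zone B cell genes, 4 lay above 0 and 3 under it, with a median of 0.01 and a range of -0.27 for Plac8 to 0.08 for S1pr1, and Notch2 and Dtx1 are also in this list. Plac8 lay at 0.63, 0.28, -0.06 and 0.20 against 0.51, 0.59, 0.60 and 0.43.

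**Figure D3:**
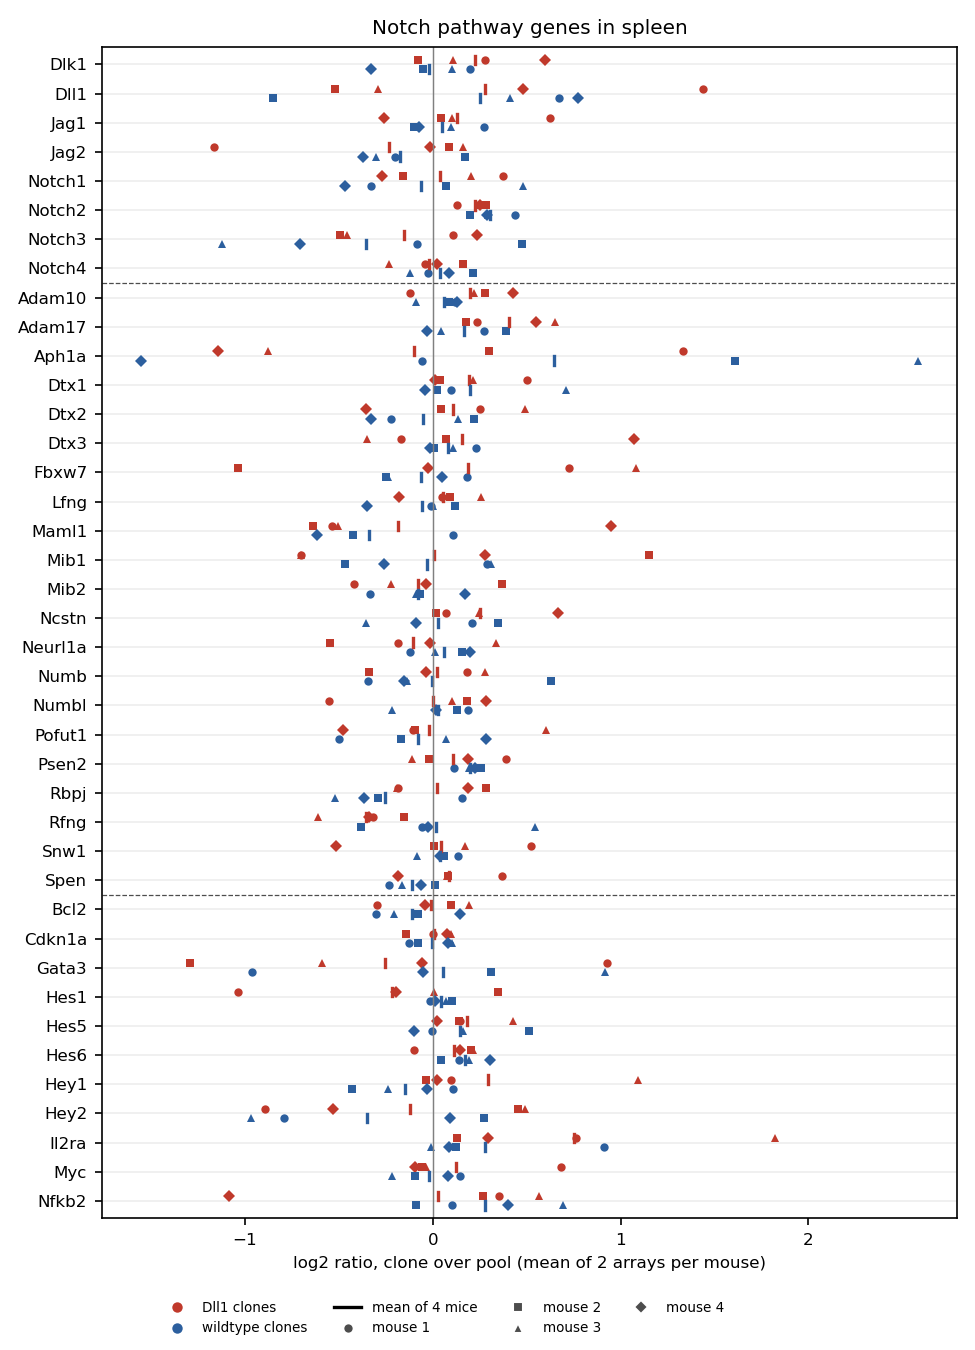
Log2 ratio of clone over pool (x axis) in each spleen for the 40 measured Notch pathway genes, with ligands and receptors above the first dashed line, processing and signalling genes between the lines and targets below. Each symbol is 1 mouse, and the upright bar is the mean of 4 mice. No gene has cohorts that do not overlap, beside 1.56% (above) and 1.67% (below) of all features. Notch2 has the tightest of the receptor values.

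Lists of blood cell genes were read next, and in bulk spleen fewer cells of a type and less RNA per cell cannot be told apart. Ratios also carry no level, so defining markers could not show which cells a spleen held. Across all 32 lists, 625 genes were measured, and 21 (3.36%, beside 4.52% over all features) had an unadjusted p under 0.05. Of these, 12 were higher and 9 lower, and the medians of the lists ran from -0.28 to 0.22.

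Neutrophil granule genes had the lowest median, -0.28, with 4 of 14 measured genes above 0 and 10 under it. The list median in each Dll1 mouse was -0.04, -0.12, -0.32 and -0.31, and in each wildtype mouse 0.12, -0.04, -0.00 and -0.00, so the cohorts met at Dll1 mouse 1 and wildtype mouse 2. An unadjusted p under 0.05 was reached by 3 of the 14, all lower (background 2.26%): Ngp and S100a9, described above, and Prtn3. Prtn3, the granule enzyme proteinase 3, is named after its values were seen, and lay at -0.43, -0.11, -0.10 and -0.78 against 0.31, 0.23, 0.01 and 0.03. The partner of S100a9 in calprotectin, S100a8, lay at 0.20, -0.96, -0.94 and -1.26 against 0.04, -0.49, -0.10 and -0.47, and overlapped. Its difference was -0.48 (SE 0.33), or -0.80 without Dll1 mouse 1. Other granule genes went the other way or stood near 0, such as Chil3 at 0.88, Ltf at 0.04 and Mmp9 at -0.01, which were picked after their values were seen. Without Dll1 mouse 1 the list median was -0.12, and without Dll1 mouse 2 it was -0.44.

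Erythroid genes lay mostly under 0 in both cohorts, in 10 to 15 of 16 genes in each Dll1 mouse and 12 to 13 in each wildtype mouse, and their medians overlapped. The median over 16 measured genes was -0.05, -0.18, -0.71 and -1.12 in Dll1 mice 1 to 4 and -0.34, -0.63, -0.36 and -0.34 in wildtype mice 1 to 4. Dll1 mouse 4 was the lowest of its cohort in 14 of the 16 genes, and wildtype mouse 2 was the lowest of its own in 11. Hba-a1, the alpha chain of haemoglobin, lay at -0.23, -0.66, -1.13 and -2.22 against -0.44, -0.71, -0.03 and -0.31, a difference of -0.69 (SE 0.40, limma adjusted p = 0.883). Its 6 probes agreed closely, at -2.33 to -2.10 in Dll1 mouse 4, and its 2 dye orientations there gave -2.04 and -2.40. A near-identical second copy of the gene can hybridise to the same probes. Alas2, the first enzyme of erythroid haem synthesis, followed the same order of mice, at -0.10, -0.23, -0.82 and -1.10 against -0.14, -0.45, 0.02 and 0.01. Slc4a1, the anion exchanger of the red cell membrane, was low in the wildtype mice as well, at -0.46, -1.07, -0.50 and -1.03, and its difference was 0.15 (SE 0.33). The median difference of the list was -0.14, and it was 0.03 without Dll1 mouse 4 and 0.04 after each array was scaled to one spread, so no direction can be given. Read without the row shift, the list had medians of -0.25 to 0.05 in the 8 mice.

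Lymphocyte genes went both ways, with differences of -0.42 to 0.58 in the T cell list and -0.36 to 0.89 in the plasma cell list. The median was -0.05 for 15 B cell genes, -0.03 for 19 T cell genes, 0.06 for 5 natural killer cell genes and -0.14 for 8 plasma cell genes. Ms4a1, which encodes the B cell protein CD20, lay above 0 in all 8 mice, at 0.55, 0.46, 0.37 and 0.39 against 0.76, 0.59, 0.81 and 0.66. Its cohorts did not overlap, with a difference of -0.26 (SE 0.15, unadjusted p = 0.12). Cd79b, a signalling chain of the B cell receptor, showed no such gap, at 0.00 (SE 0.33). Among T cell genes, Cd4 had a difference of 0.30 and separate cohorts, at 0.18, 0.40, 0.17 and 0.30 against 0.14, -0.15, -0.09 and -0.04. Cd28, the costimulatory receptor, lay at 0.01, 0.44, 0.24 and 0.42 against 0.59, 0.57, 0.56 and 0.67, while the receptor chains Cd3g and Cd3e stood at -0.07 and -0.31. Foxp3, the regulator of regulatory T cells, stood at -0.42, but at 0.90 on the Cy5 arrays and -1.73 on the Cy3 arrays. Xbp1, a regulator of secretion in plasma cells, lay at 0.93, 0.67, 0.73 and 0.06 against -0.14, -0.04, 0.01 and 0.04, a difference of 0.63 (SE 0.22).

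Myeloid and antigen presentation genes were mixed. Over 19 macrophage and monocyte genes the median was -0.00. Lyz2, lysozyme of macrophages and neutrophils, lay at 0.08, 0.41, 0.30 and 0.45 against 0.79, 0.74, 0.79 and 0.70, with both of its dye orientations under 0, at -0.47 and -0.42. Lgmn, the lysosomal protease legumain, lay at 0.63, 0.31, 0.39 and 0.38 against 0.00, 0.24, -0.01 and -0.14. The red pulp macrophage markers Vcam1 and Hmox1 stood at 0.37 and 0.53, and Hmox1 at 0.23 without Dll1 mouse 1. H2-Eb1, a chain of an MHC class II molecule, lay at 0.81, 1.50, 1.47 and 1.58 against 0.84, 0.04, 0.18 and 0.74, a difference of 0.89 (SE 0.27). It was above 0 in all 8 mice and overlapped at Dll1 mouse 1 and wildtype mouse 1. It stood against its own list, since 8 of the 10 MHC class II genes lay under 0, with a median of -0.14. H2-Ab1 and Cd74, picked after their values were seen, stood at -0.35 and -0.14. Dendritic cell genes had a median of -0.05 over 11 genes, 21 interferon response genes -0.05, and 38 chemokine, cytokine and receptor genes 0.05.

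**Figure D4:**
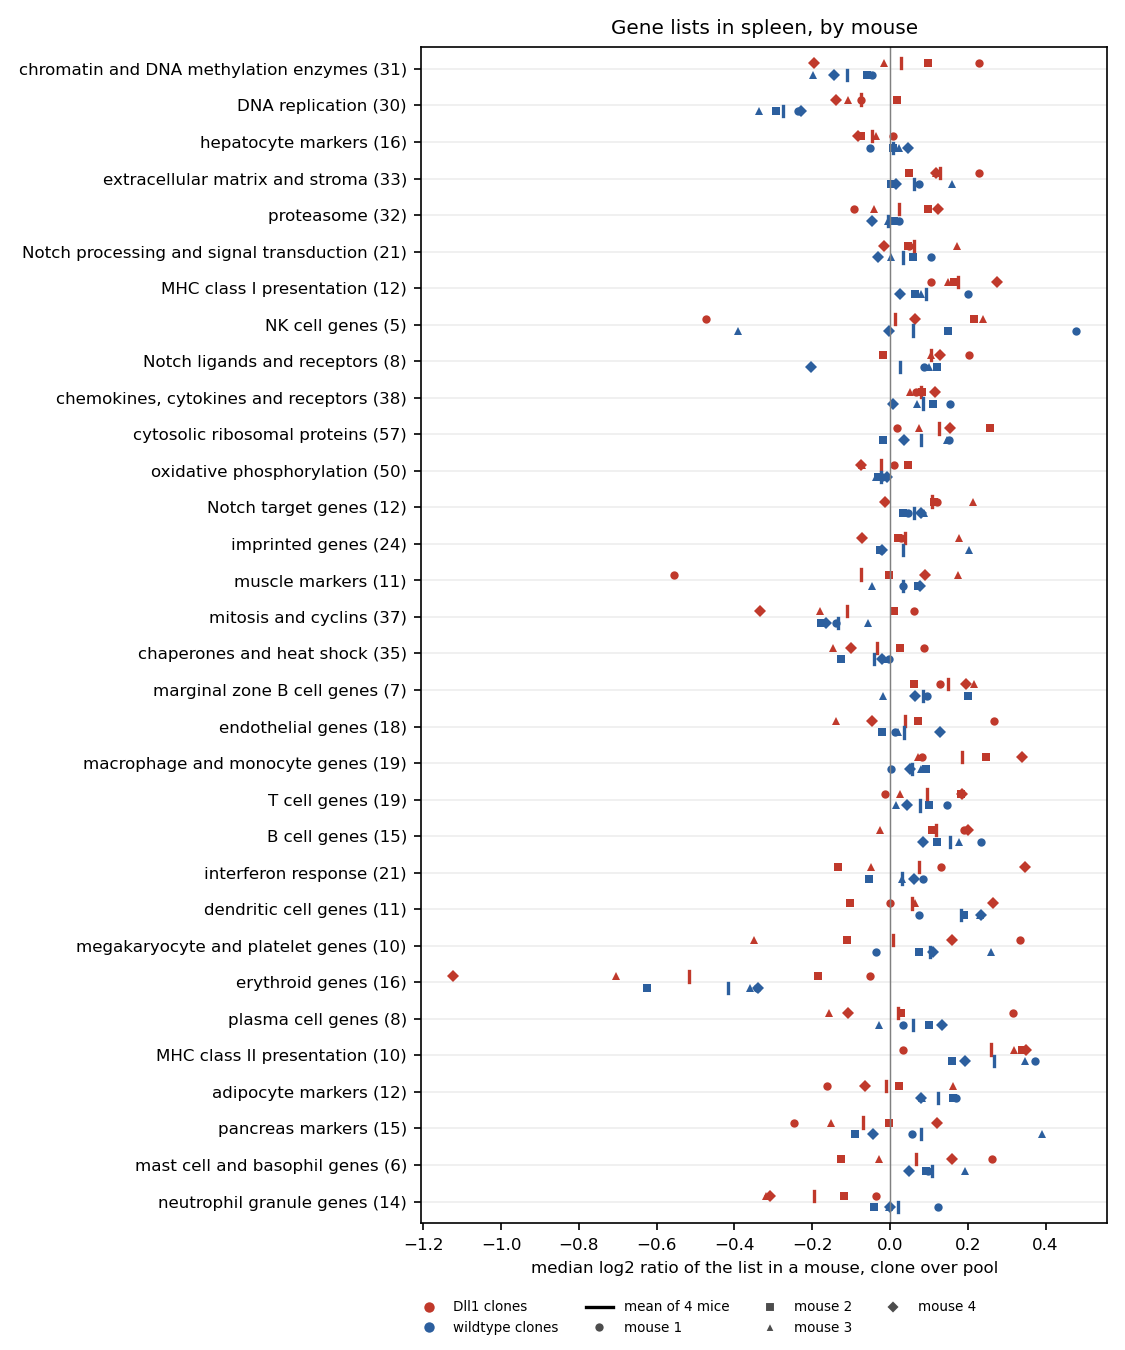
Median log2 ratio of clone over pool (x axis) of each of 32 gene lists in each spleen, ordered by the median difference of the list, with the number of measured genes in brackets. Each symbol is 1 mouse, and the upright bar is the mean of the 4 mice. Erythroid medians run from -1.12 to -0.05 in the Dll1 mice, and the medians do not overlap in 1 of the 32 lists, DNA replication, beside 1.56% (above) and 1.67% (below) of single features.

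DNA replication genes were the 1 list of 32 whose mouse medians did not overlap between cohorts, a share near that of single features (1.56% above and 1.67% below), so nothing is read from it about the list. The median over 30 genes was -0.07, 0.02, -0.11 and -0.14 in the Dll1 mice and -0.24, -0.29, -0.34 and -0.23 in the wildtype mice. The means of these medians were -0.0753 ± 0.0683 and -0.274 ± 0.0512 (SD, n = 4 each), given as description only. Of the 30 differences, 21 were above 0 and 9 under it, with a median of 0.21, and 1 had an unadjusted p under 0.05 (background 2.26% for higher). That gene was Cdc6, which loads the replicative helicase, at -0.02, -0.22, -0.04 and 0.08 against -0.45, -0.69, -1.01 and -0.48. Its difference was 0.61 (SE 0.19, limma adjusted p = 0.883), and it was 0.72 on the Cy5 arrays and 0.50 on the Cy3 arrays. The 2 Cdc6 probes disagreed, with differences of 0.02 and 1.19, and Dll1 mouse 4 lay at -1.06 on one and 1.22 on the other. Rfc1, the large subunit of the clamp loader, went the other way, at -1.17 (SE 0.55). With the Cy3 arrays turned, the median of the list was -0.05. Mitosis and cyclin genes had a median of 0.01 over 37 genes, and their mouse medians overlapped.

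Chromatin and DNA methylation enzymes had the highest median, 0.22 over 31 genes, with 21 above 0 and 10 under it. The mouse medians overlapped, at 0.23, 0.10, -0.01 and -0.20 against -0.05, -0.06, -0.20 and -0.14, and the median difference was -0.06 with the Cy3 arrays turned. H2az1, a histone variant of promoters, lay at 0.29, 0.32, 0.25 and 0.59 against 0.06, -0.04, -0.12 and -0.38, a difference of 0.48 (SE 0.18). Chd4, the helicase of a deacetylase complex, lay at -0.76, -0.39, -0.65 and -0.53 against 1.14, 0.27, -0.44 and 0.60, a difference of -0.98 (SE 0.32).

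Imprinted genes, the class in which clones are known to err, had a median of 0.03 over 24 measured genes, with 13 above 0 and 11 under it. An unadjusted p under 0.05 was reached by 4 of the 24 (background 4.52%), with 2 in each direction (background 2.26%). Besides Commd1, Peg3 had the largest difference named here, -3.22 (SE 1.03), on 7 mice because Dll1 mouse 3 had no value. It lay at -3.02, -0.63 and -2.20 in the other Dll1 mice and at 4.01, 0.07, 0.13 and 0.87 in the wildtype mice, and Dll1 mouse 1 and wildtype mouse 1 lay farthest from 0. Of these 7 values, 6 rested on 1 array, and the mouse with both, Dll1 mouse 2, had -1.91 and 0.66. The other pair, Slc38a4 and Snrpn, named after their values were seen, stood at 0.93 and 1.41, and Snrpn lacked wildtype mouse 3. Igf2, Igf2r, Grb10 and Cdkn1c, imprinted regulators of growth that were picked by name, stood at 0.11, -0.03, 0.10 and 0.15.

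Structural and housekeeping genes gave few differences. Mmp2, a matrix metalloprotease, had the smallest unadjusted p of all the list genes, 0.00126, at 0.63, 0.71, 1.02 and 0.57 against 0.09, -0.07, -0.24 and -0.19. Its difference was 0.83 (SE 0.18, limma adjusted p = 0.883). Mmp14, which activates the Mmp2 enzyme, stood at 0.85 (SE 0.32), but the cohorts met and the sign changed to -0.59 with the Cy3 arrays turned. The median of the 33 matrix and stroma genes was 0.08. Cytosolic ribosomal protein genes had a median of 0.04 over 57 genes, oxidative phosphorylation genes 0.03 over 50, chaperones 0.01 over 35 and proteasome genes 0.07 over 32. Rpl32 stood at 0.36. The proteasome subunit Psmc2 stood at 0.63 with Dll1 mouse 1 at 0.95, and at 0.39 without that mouse. Its other Dll1 mice lay at -0.03 to 0.03 and the wildtype mice at -0.63 to -0.09, so the cohorts did not overlap.

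Genes of neighbouring tissues were included because pancreas and fat lie against the spleen. The median was -0.15 over 15 pancreas genes, -0.15 over 12 adipocyte genes, 0.12 over 16 hepatocyte genes and 0.02 over 11 muscle genes. These signs were not stable: the hepatocyte median was -0.04 without Dll1 mouse 1, the pancreas median -0.25 on the Cy5 arrays and 0.06 on the Cy3 arrays, and the adipocyte median -0.26 and 0.12. Cpa1, a pancreatic carboxypeptidase, lay at -0.38, 0.48, -0.15 and 0.50 against 0.73, 0.60, 0.86 and 0.75, a difference of -0.62 (SE 0.24). Another pancreatic protease, Ctrb1, stood at 0.01 (SE 0.70) with values up to 2.43 in wildtype mouse 3. Alb, the liver protein albumin, had a difference of -0.43 in spleen and 0.29 in liver. Adipoq, the fat cell hormone adiponectin, reached 2.10 in Dll1 mouse 3 and 2.88 in wildtype mouse 2. The part of such tissue in the differences was not tested.

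Livers of the same 8 mice gave a measure in a second organ, with 0 of 17020 features (0%) called and a median standard error of 0.0742, against 0.292 in spleen. The difference between organs, spleen minus liver within each mouse, was tested in 16909 features. It passed the adjusted threshold in 0 (0%), with 807 (4.77%) at an unadjusted p under 0.05 and a smallest adjusted p of 0.913. For the 20 top genes the liver differences lay between -0.20 and 0.64, and 9 of 20 had the same sign as in spleen. These genes were ranked by p on the spleen values, so larger differences in spleen than in liver were in part set by the ranking. Fam120b stood at 0.06 (SE 0.06) in liver, Kctd10 at -0.05 (SE 0.10), Ngp at 0.03 (SE 0.06) and Commd1 at 0.12 (SE 0.16). Btg2 had the largest liver value, at 0.64 (SE 0.16) against -0.87 in spleen, and the organ difference of -1.51 did not pass (limma adjusted p = 0.913). The livers came from the same 8 mice, so they add no further animals.

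**Figure D5:**
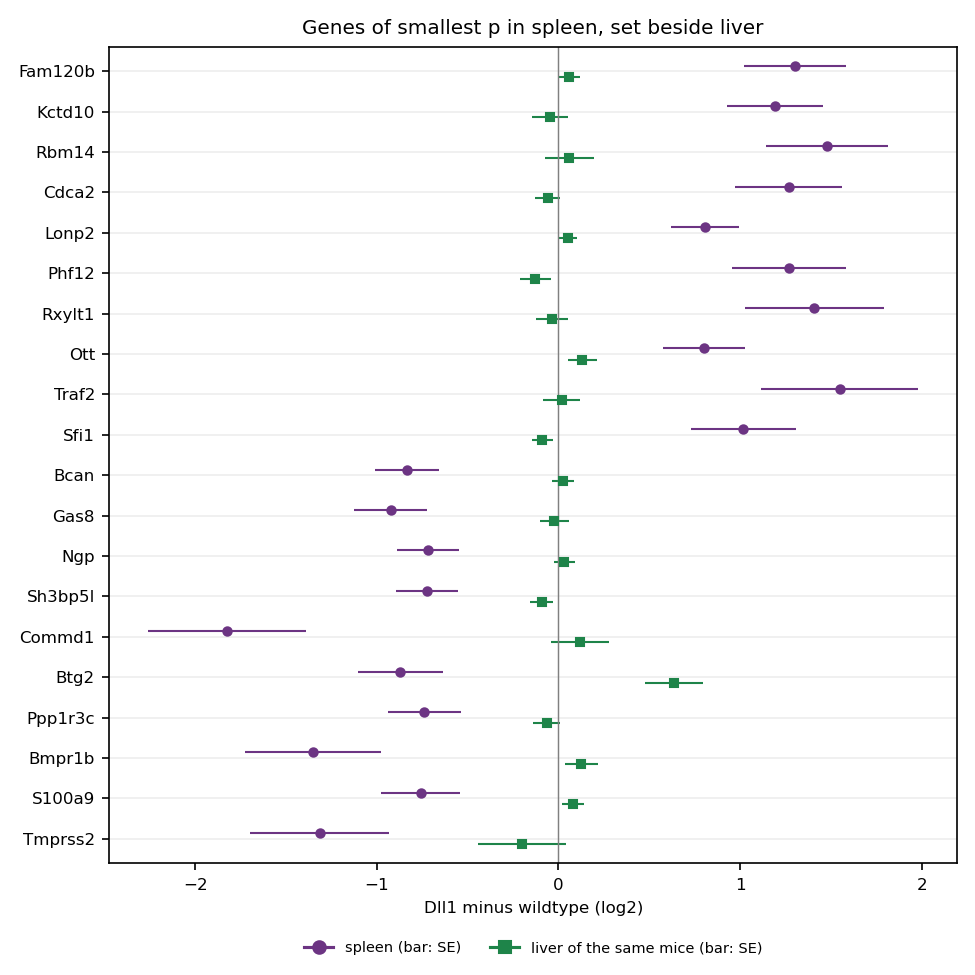
Dll1 minus wildtype difference (log2, x axis) in spleen (circles) and in liver of the same mice (squares) for the 20 genes of smallest p in spleen, and bars are standard errors from limma. Spleen differences lie between 0.72 and 1.82 in size, and liver differences between -0.20 and 0.64. The genes were ranked on the spleen values, which in part sets this contrast.

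Leaving out Dll1 mouse 1 gave 0 calls in limma, and 951 features had an unadjusted p under 0.05. Each of the 20 genes then had an adjusted p of 0.833. Fam120b then stood at 1.14, Commd1 at -1.49, Ngp at -0.66 and S100a9 at -0.81. One other setting did give calls. When both organs were fitted together, the smaller spread of liver entered the estimate for spleen. Of 16956 features, 56 then passed, 32 higher and 24 lower, with a smallest limma adjusted p of 0.0127. They held 27 named genes, among them 12 of the 20 described above. The 20 had been ranked by p on the same spleen values, so this overlap was in part set by the ranking.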

How the data were processed

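The deposited values were log2 ratios of the 2 channels of each array, and for the authors' normalization, scanner and filters the record is: not given in the sources used here. Per the labels' protocols, RNeasy total RNA was labelled indirectly with Cy3 or Cy5. Gene lists, members and the row shift of 11 were chosen with earlier results of these data known. The table had 20794 rows, of which 12760 received 1 of 9026 gene names from the platform's annotation, all through current symbols. Values over 9 in size were set to missing, because beyond that size the table holds repeated constants. The 2 arrays of a mouse were averaged (1 value sufficed), then the probes of a gene. The unadjusted and adjusted p-values and 95% intervals came from limma 3.58.1 in R 4.3.3 (lmFit, eBayes, Benjamini-Hochberg over all features, threshold 0.05), checked on simulated data. Per-mouse array measures were compared by exact permutation over 70 splits. No depth is defined for arrays, and their number limits the precision. The sources do not say whether the clones of a cohort shared a donor cell line, so p-values measure the spread between these mice.

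Named were Dll1, the 10 named genes of smallest p in each direction with a probe complete on all 16 arrays, and up to 2 members of smallest p per list. The Notch genes and spleen cell markers (23 of 33 measured) were named as well. Others are marked where they occur. No genome was used, so no coordinates are given. Title numbers were not used to pair the cohorts. After cohort means were taken off, same-numbered mice correlated at -0.0249 to 0.0208. Mice of one cohort correlated at only 0.00249 to 0.0561, so such values cannot show whether the numbers mark a pairing.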

Additional observations from a re-analysis of the deposited data

Results flagged for a closer look

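In 289 sets of 4 mice, 25 had 1 mouse far from the other 3 by Dixon's test at the 95% level, where chance gives about 5%. The sets share the same mice and include genes ranked by p on these values, so no excess is read from this count. Dll1 mouse 1, the mouse with the most missing spots, was the distant one in Gas8 (-0.0015, others -0.70 to -0.60), Sfi1 (1.02, others 0.84 to 0.87), H2-Eb1 (0.81, others 1.47 to 1.58), Psmc2 (0.95, others -0.03 to 0.03), Sec11c (1.89), Ccr7 (-0.81), Hdc (0.54), Tnnc2 (-0.62), Myc (0.69) and Jag2 (-1.16). It also stood apart in the median of MHC class II genes (0.0341, others 0.32 to 0.35). In the Dll1 cohort, mouse 2 stood apart in Rpl32 (0.31), and mouse 3 in Cox5b (-0.12) and Hey1 (1.09).

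Wildtype mouse 2 was distant in Rbm14 (-1.17, others -0.24 to -0.09), Pvalb (2.83), Adipoq (2.88), Ttr (0.27), the median of erythroid genes (-0.63, others -0.36 to -0.34) and the median of chaperones (-0.13). Wildtype mouse 1 stood apart in Il2ra (0.91), mouse 4 in Ott (0.24) and in the median of Notch ligands and receptors (-0.20, others 0.09 to 0.12). Wildtype mouse 3 stood apart in the median of imprinted genes (0.20) and in missing spots (2001, others 852 to 1006).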

How the results depend on the processing

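Of 23 alternative settings, 22 gave 0 calls for the spleen difference, with smallest limma adjusted p-values of 0.288 to 0.952. They covered kept constants, centring, scaling, both arrays required, single arrays, either dye alone, Cy3 turned, single probes, complete probes, mouse weights, robust eBayes, unshifted names, the replicate block and each mouse left out. The joint fit of both organs gave 56 calls, and 2733 features at an unadjusted p under 0.05. That fit pools the smaller spread of liver. Turning the Cy3 arrays gave 1179 such features in spleen and 3059 for the organ difference, and the cause was not tested. With the replicate block 763 features had an unadjusted p under 0.05 (766 without it), and 0 were called. Leaving out 1 mouse gave 0 to 0 calls with 566 to 1104 such features, and for the organ difference 0 to 0 calls with 594 to 1147.

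Dll1 changed sign with scaled arrays (-0.0772), both arrays required (-0.30), single arrays (-0.10), Cy3 turned (-0.39), Cy5 arrays only (-0.28), complete probes (-0.22) and mouse weights (-0.18). Leaving out 1 mouse moved it between -0.36 and 0.29. With Cy3 turned, these also changed sign: Fam120b (-0.13), Rbm14 (-0.95), Cdca2 (-0.77), Lonp2 (-0.36), Ott (-0.76), Bcan (1.07), Btg2 (0.87), S100a9 (0.0544), H2-Eb1 (-0.29), Lgmn (-0.13), Chd4 (0.23), Rpl32 (-0.0103), Mmp14 (-0.59), Alb (0.11) and Peg3 (0.996). Turning negates the Cy3 values, and in these genes the Cy3 difference was the larger in size, as in Rbm14 (0.53 on Cy5, 2.43 on Cy3). Bcan changed sign with kept constants (0.19) and Cy5 arrays only (0.21), as did Btg2 with Cy5 arrays only (0.31). Why the orientations differed was not tested. Of the 32 list medians, 14 moved beyond the spread between mice on Cy5 arrays alone, 12 on Cy3 arrays alone and 14 with Cy3 turned. Signal over background was not analysed here.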

Other observations

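Several immune genes lay above the pool in every clone spleen of both cohorts, which the difference between cohorts does not show. Ifi30, a thiol reductase of antigen processing, lay at 0.42, 0.40, 0.38 and 0.58 in the Dll1 mice and at 0.62, 0.54, 0.64 and 0.51 in the wildtype mice. Cd74, the invariant chain of MHC class II, lay at 0.10, 0.45, 0.34 and 0.62 against 0.52, 0.57, 0.48 and 0.49. Ms4a1, Cd28, Lyz2 and H2-Eb1 were above 0 in all 8 mice as well. Some values were close to 0, with Cd28 at 0.005 in Dll1 mouse 1 and H2-Eb1 at 0.035 in wildtype mouse 2. On the other side, Rrm2, a subunit of ribonucleotide reductase, was under 0 in 7 of 8 mice, and Dek, a chromatin protein, was under 0 in all 8, at -0.90 to -0.22 in the Dll1 mice and -1.05 to -0.57 in the wildtype mice. These genes were picked after their values were seen, and no test was made of them. All mice of a cohort shared the same pool, and the share of all features on one side of 0 in all 8 mice was not counted.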
